A study of Homo sapiens and Mus musculus with 19 samples.

Results

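The zinc finger genes of human chromosome 19 were followed across 2 cell lines at CCGG sites read as unmethylated, methylated (5mC) or hydroxymethylated (5hmC). The members were all protein-coding genes of the chromosome whose symbol is ZNF and a number, in 6 cases with a letter after it. They numbered 246 of the 19126 autosomal protein-coding genes in the RefSeq table for GRCh38.p14. Another 1205 protein-coding genes of the chromosome, and 251 ZNF genes of other autosomes, served for comparison. The rule is by symbol and uses no methylation value.

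The series holds 19 libraries, of which 14 are human. H1ES is a line of human embryonic stem cells, which are pluripotent. HepG2 is a line grown from a human liver carcinoma that keeps many hepatocyte traits. Each line gave 2 libraries of 1000 cells and 5 libraries of 1 cell each, with no treatment or genotype named in the labels. The other 5 libraries are mouse cerebellum and were not used. The labels name no separate cultures, so p-values are set against library-to-library scatter alone, and that scatter may be technical. Each line is 1 genotype, and differences between the lines cannot be told apart from differences between their donors or culture histories.

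Most zinc finger genes of this chromosome lie in tandem clusters that grew by gene duplication in primates and earlier mammals. Many encode a KRAB domain, through which the protein recruits the corepressor TRIM28 and histone methyltransferases to the DNA that its zinc fingers recognise, often a family of transposable elements. The genes themselves often carry a CpG island at the start, while their bodies and 3′ ends are known to bear repressive histone methylation and dense DNA methylation in many cell types. Members also act on each other, and ZNF274 is known to bind the 3′ ends of other zinc finger genes.

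In the assay, HpaII cuts only unmethylated CCGG and leaves a tag at the site. Later MspI steps tag the hydroxymethylated and methylated sites with other adapters. A value below is the percent of all tags in a window that carry a given mark. The start window covers 1000 bp on each side of the transcription start, the 3′ end is the last 3000 bp of the gene, and the body is what lies between them. Of the 246 members, 216 were placed by a RefSeq promoter entry and 28 by the gene end with more CCGG sites, a rule that gave the right end for 91.9% of the members with an entry that it could place. The remaining 2, among them ZNF676, could not be placed. A body window existed for 239 members. Of the CCGG sites in the windows, 320 lay in 2 or more members and 337 in the span of another protein-coding gene. Members resemble each other in sequence, and how tags with several possible origins were treated is not given in the sources used here. A value of a single member is therefore uncertain where near-identical copies could share its tags.

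The libraries of 1000 cells held 4911898 to 6644517 tags each. Single H1ES cells held 757767 to 1543724 tags and single HepG2 cells 526207 to 2455908. Over all autosomes the H1ES libraries of 1000 cells were 93.6% and 94.2% 5mC, against 60.6% and 61.7% in HepG2. Every result on members therefore stands against a large difference in the same direction over the whole genome. The labels were checked at marker starts. Pooled starts of 9 pluripotency genes were 79.3% and 82.8% unmethylated in H1ES and 19.8% and 31.3% in HepG2. Of these, GDF3 went the other way, with 0% in both H1ES libraries and 60% and 33.3% in HepG2. Of 10 hepatocyte starts, those of ALB, AFP and APOA2 held no CCGG site. The others, pooled, were 0.633% and 5.05% unmethylated in H1ES and 70.4% and 73.4% in HepG2. TTR had no unmethylated tag in either line. APOA1 did not separate the lines, with 9.09% and 100% in H1ES and 40% and 66.7% in HepG2. Both were placed by the gene end with more CCGG sites. Of 6 fibroblast and blood starts, that of PTPRC held no site. The others, pooled, were 46% and 28.3% unmethylated in H1ES and 77.9% and 66.1% in HepG2. The part of other cells in the results was not tested. At member bodies 55.9 to 58.7% of CCGG sites had a tag, at 3′ ends 46.1 to 49.1% and at starts only 24.4 to 26.1%. A member had a median of 44 tags per library in its body, 8 at its start and 5 at its 3′ end.

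The promoters of 4 members that the results turn on are shown first, because 3 of them are close copies, and ZNF208 and ZNF91 among them carried different marks. Each line is the 250 bases before the transcription start, from RefSeq (GRCh38.p14), written 5′ to 3′ on the strand of the gene, with the assayed CCGG sites in capitals. ZNF208 (chr19:22010944-22011193, minus strand), ZNF257 (chr19:22052234-22052483, plus strand) and ZNF91 (chr19:23395472-23395721, minus strand) belong to the same cluster. ZNF331 (chr19:53520764-53521013, plus strand), known as an imprinted gene, lies in another cluster and shows how a member outside that group looks.
ZNF208: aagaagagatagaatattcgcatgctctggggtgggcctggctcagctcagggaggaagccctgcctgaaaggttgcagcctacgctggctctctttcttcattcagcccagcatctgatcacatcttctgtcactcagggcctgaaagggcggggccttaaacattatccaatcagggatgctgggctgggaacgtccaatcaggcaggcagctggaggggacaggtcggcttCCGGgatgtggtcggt
ZNF257: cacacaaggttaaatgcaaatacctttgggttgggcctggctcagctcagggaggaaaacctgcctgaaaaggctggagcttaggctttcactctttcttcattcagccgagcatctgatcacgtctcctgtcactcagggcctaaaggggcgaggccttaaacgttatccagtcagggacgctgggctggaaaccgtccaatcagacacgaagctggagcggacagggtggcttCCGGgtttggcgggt
ZNF91: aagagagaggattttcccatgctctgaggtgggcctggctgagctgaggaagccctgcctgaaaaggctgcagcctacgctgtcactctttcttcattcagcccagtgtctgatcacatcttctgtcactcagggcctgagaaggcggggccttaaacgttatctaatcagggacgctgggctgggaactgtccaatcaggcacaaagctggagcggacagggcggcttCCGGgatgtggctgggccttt
ZNF331: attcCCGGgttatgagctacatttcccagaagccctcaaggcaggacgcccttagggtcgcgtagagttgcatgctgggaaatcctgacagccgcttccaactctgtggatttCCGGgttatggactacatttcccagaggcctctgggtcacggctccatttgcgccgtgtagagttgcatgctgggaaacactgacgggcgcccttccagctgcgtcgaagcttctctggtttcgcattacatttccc

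Over these 250 bases ZNF208 and ZNF91 were 88.8% identical, ZNF208 and ZNF257 82.8%, and ZNF208 and ZNF331 60.4%. The last value lay near the median of 59.2% between ZNF208 and the 187 promoters of the other clusters. Among the 28 other promoters of the ZNF208 cluster, 25 were at least 70% identical to that of ZNF208, against 0 of 187 in the other clusters. The motif CCAATCA, searched on both strands and overlapping no CCGG, contains the CCAAT box known to be bound by NF-Y. It occurred in 29 of 29 promoters of that cluster, in 27.3% of all 216 members and in 8.22% of 15101 promoters of all genes. CCGG occurred in 84.7% of member promoters and in 71.0% of all. The CCGG printed for ZNF208, 14 bases before its start, gave 0 unmethylated tags of 3 and of 8 in the H1ES libraries, and 0 of 6 and of 4 in HepG2. The CCGG printed for ZNF91, 19 bases before its start, gave 4 unmethylated tags of 4 and 1 of 1 in H1ES, and 4 of 5 and 4 of 4 in HepG2. ZNF208 and ZNF91 thus carried opposite states in both lines, on few tags. The CCGG of ZNF257 had no tag. At ZNF331 the site 245 bases before the start gave 11 unmethylated tags of 12 and 3 of 3 in H1ES, and 3 of 4 and 2 of 6 in HepG2. The other site, 136 bases before the start, gave 2 of 2 and 1 of 2 in H1ES, and 3 of 4 and 1 of 2 in HepG2.

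Pooled over members, the starts differed little between the lines, while the starts of the comparison sets differed more. The start windows were 57.8% and 56.0% unmethylated in the H1ES libraries and 60.6% and 60.3% in HepG2. The HepG2 values lie above both H1ES values, by 3.51 percentage points in the mean (56.9 ± 1.21 against 60.4 ± 0.235, SD, n = 2 each). Starts of the other genes of chromosome 19 had means of 41.9% in H1ES and 63.9% in HepG2. ZNF genes of other autosomes had 57.1% and 66.3%, and all other autosomal genes 54.1% and 67.8%. Within each library, members lay 14.8 and 15.2 points above the other genes of the chromosome in H1ES, and in HepG2 they differed from them by -4.27 and -2.74 points. Against ZNF genes of other autosomes, members differed by only -0.11 and -0.21 points in H1ES, and by -6.34 and -5.34 points in HepG2. The high H1ES share was thus not particular to chromosome 19, whose other genes had the lowest share of the sets. The exact permutation test (two-sided) of either difference between the lines gave p = 0.333, the smallest value that 2 libraries against 2 allow.

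The unmethylated stretch was narrow in both lines. From 500 bp before the start to the start, the mean unmethylated share was 70.5% in H1ES and 70.1% in HepG2. In the first 500 bp of the gene it was 80.8% and 77.5%. Between 1 and 2 kb before the start it was 2.67% in H1ES and 18.4% in HepG2, and between 2 and 5 kb into the gene 1.41% and 12.8%. The lines thus lay closest at the start itself and further apart upstream, where the bin from 2 to 5 kb before it held 4.58% and 30.4%, and that from 5 to 10 kb 5.67% and 31.3%.

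**Figure D1:**
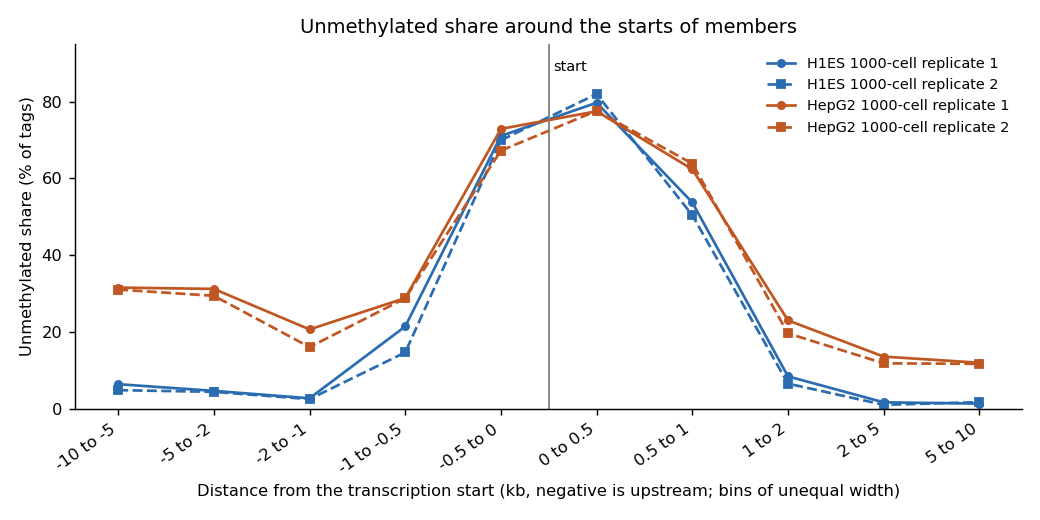
Unmethylated share of pooled tags (percent, y axis) by distance from the transcription start in kb (x axis, bins of unequal width) for the 216 members placed by a promoter entry, with 1 line per library of 1000 cells. All libraries peak at the start, near 70 to 80%, and the HepG2 libraries lie above H1ES on both sides, with 31.3% against 5.67% in the furthest upstream bin.

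Single starts moved in both directions. At least 10 tags in every library were available for 52 members. Of these, 10 (19.2%) were more unmethylated in HepG2 and 4 (7.69%) less, by edgeR's quasi-likelihood test with Benjamini-Hochberg adjustment over 4759 genes. Over all genes tested, 31.3% were called more unmethylated and 5.61% less. The members' median log2 odds ratio was 0.01, against 1.19 over all genes. Each library's odds over all autosomal tags were then taken as the reference. With it 1 member start (1.92%) was higher and 32 (61.5%) lower, against 5.74% and 45.4% of all genes. That scaling moves the median of all genes from 1.19 to -2.44, so the split of calls depends on the reference. A refit without 1 library leaves a single library in that line, so only effect sizes are given. Without H1ES replicate 1 or 2 the members' median log2 odds ratio was -0.01 or 0.16, against 1.29 or 1.12 over all genes. Without HepG2 replicate 1 or 2 it was 0.18 or 0.73, against 1.26 or 1.32. Such refits cannot show whether the call of a single start holds, so each call rests on all the libraries together.

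Among starts that became more unmethylated, ZNF77 was 23.7% and 7.14% unmethylated in H1ES and 77.8% and 55.6% in HepG2. Its log2 odds ratio was 3.05 ± 0.78 (SE, adjusted p = 4.7e-04). ZNF563 had 50% and 30.8% in H1ES and 84.4% and 76.7% in HepG2 (2.54 on the log2 odds scale, adjusted p = 4.0e-04). ZNF562 had 12.5% and 19% in H1ES and 57.9% and 54.2% in HepG2 (2.66, adjusted p = 0.00533). That both HepG2 libraries lay above both H1ES libraries was a condition for naming these 3 genes. Against each library's own odds the direction flipped to -0.64, -1.19 and -1.04, with no call. At ZNF208 no unmethylated tag was seen among 30 and 17 in H1ES, which allows a share of up to 6.38% over both libraries, against 26.3% and 26.7% in HepG2. At ZNF257 none was seen among 17 and 27, which allows up to 6.82%, against 36.4% and 20%. The limits count 3 tags over both libraries and, like the intervals below, cover counting error only.

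Starts that became less unmethylated were fewer. ZNF575 fell from 75.7% and 82.6% in H1ES to 21.4% and 38.5% in HepG2 (log2 odds ratio -3.07 ± 0.66, SE, adjusted p = 2.3e-05). ZNF329 had 74.1% and 71.4% in H1ES and 45.8% and 36.8% in HepG2 (-1.88, adjusted p = 0.0277). ZNF331 had 74.3% and 84.0% in H1ES and 55.6% and 50% in HepG2 (-1.68, adjusted p = 0.0325). Both of these last calls were lost with a replicate block (adjusted p = 0.0540 and 0.0565), with DESeq2 (0.0967 and 0.102) and with limma (0.0797 and 0.105). ZNF91, known to silence SVA retrotransposons, had 36.7% and 42.1% in H1ES and 55.6% and 56.7% in HepG2 and was not called (1.0, adjusted p = 0.231). Against each library's odds its value was -2.70 (adjusted p = 2.6e-04). ZNF93, ZNF274 and ZNF154 had too few start tags to be tested.

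With a minimum of 5 tags, 129 members could be tested. Of these, 23 (17.8%) were more unmethylated in HepG2 and 12 (9.3%) less, against 25.8% and 4.56% of 9967 genes. In the cluster of ZNF208 and ZNF257, 8 of 25 starts tested were more unmethylated, a share near that of all genes. The following were chosen after their values were seen. ZNF556 was 5% and 0% unmethylated in H1ES and 87.5% and 93.3% in HepG2. ZNF439 had 10% and 0% in H1ES and 100% and 92.9% in HepG2. In the opposite direction, ZNF302 had 83.3% and 62.5% in H1ES and no unmethylated tag among 13 and 13 in HepG2, which allows up to 11.5%. ZNF506 had 83.3% and 85.0% in H1ES and 9.52% and 0% in HepG2. ZNF814 had 87.5% and 100% in H1ES, on 8 and 5 tags, and 0% in both HepG2 libraries, on 7 and 7. These 5 starts were mostly methylated in 1 line and mostly unmethylated in the other. Taking 80% and 20% as limits for the line means, 17 of the 129 starts were high in both lines, 5 low in both, 3 low in H1ES and high in HepG2, and 2 the reverse. Over all 9967 genes these classes held 26.0%, 7.22%, 4.73% and 0.873%, so starts high in both lines were a smaller share of the members. This difference was not tested.

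**Figure D2:**
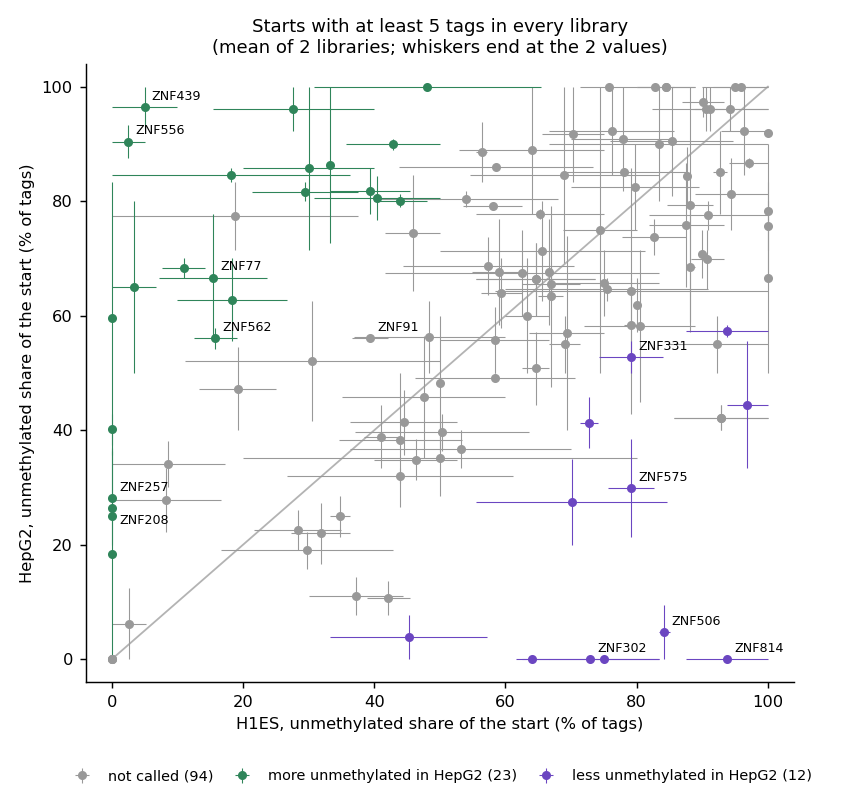
Each point is a member start with at least 5 tags in every library of 1000 cells, with its mean unmethylated share in H1ES (x axis, percent) and in HepG2 (y axis, percent), and whiskers that end at the values of the 2 libraries. The 23 green points were called more unmethylated in HepG2 and the 12 purple points less, while the 94 grey points were not called.

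Gene bodies of the members were almost fully methylated in H1ES and less so in HepG2. Pooled over members, 5mC was 96.1% and 96.8% in H1ES and 78.3% and 78.2% in HepG2. The difference of -18.2 points exceeded the spread between libraries (96.5 ± 0.497 against 78.3 ± 0.0517, SD, n = 2 each), with p = 0.333 by the exact permutation test, the smallest possible. A single gene weighs on this value. ZNF536, a regulator of neuronal differentiation that lies apart from the clusters, holds 628 of the 6006 body sites. Its body was 91.0% and 93.7% 5mC in H1ES and 32% and 33.6% in HepG2. Without it the pooled values were 96.9 ± 0.333% and 83.1 ± 0.110%, a difference of -13.8 points. Bodies of other genes of the chromosome had means of 94.7% and 77.4%, ZNF genes of other autosomes 95.9% and 74.4%. Members lay above the other genes of the chromosome by 1.69 and 1.89 points in H1ES and by 1.25 and 0.443 points in HepG2. Without ZNF536 these values were 2.3 and 2.26 in H1ES, and 6.16 and 5.26 in HepG2. The change between lines of this difference was -0.942 points with ZNF536 and 3.43 without it, each with p = 0.333 (exact permutation).

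Gene by gene, 169 member bodies had at least 20 tags in every library. In HepG2 1 was called higher in 5mC and 67 lower, or 39.6% of those tested. Over all 12285 bodies tested, 2.34% were called higher and 53.9% lower. Against each library's odds, 38 members (22.5%) were higher and 29 (17.2%) lower, beside 38.3% and 21.6% of all genes. That scaling moved the median log2 odds ratio of all genes from -1.95 to 1.15. The median member body held 98.5% 5mC in H1ES and 95.3% in HepG2, compared with 97.3% and 88.9% over all bodies tested. In HepG2, 18 members, or 10.7%, were under 50% 5mC, against 20.6% of all genes and 19.4% of other chromosome 19 genes. At least 90% was held by 60.9% of members and 48.1% of all genes. ZNF genes of other autosomes were close to the members, with a HepG2 median of 94.9%, 61.1% at 90% or more and 14.4% under 50%. The low HepG2 values thus sat in a minority of members. These shares are descriptions and were not tested.

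**Figure D3:**
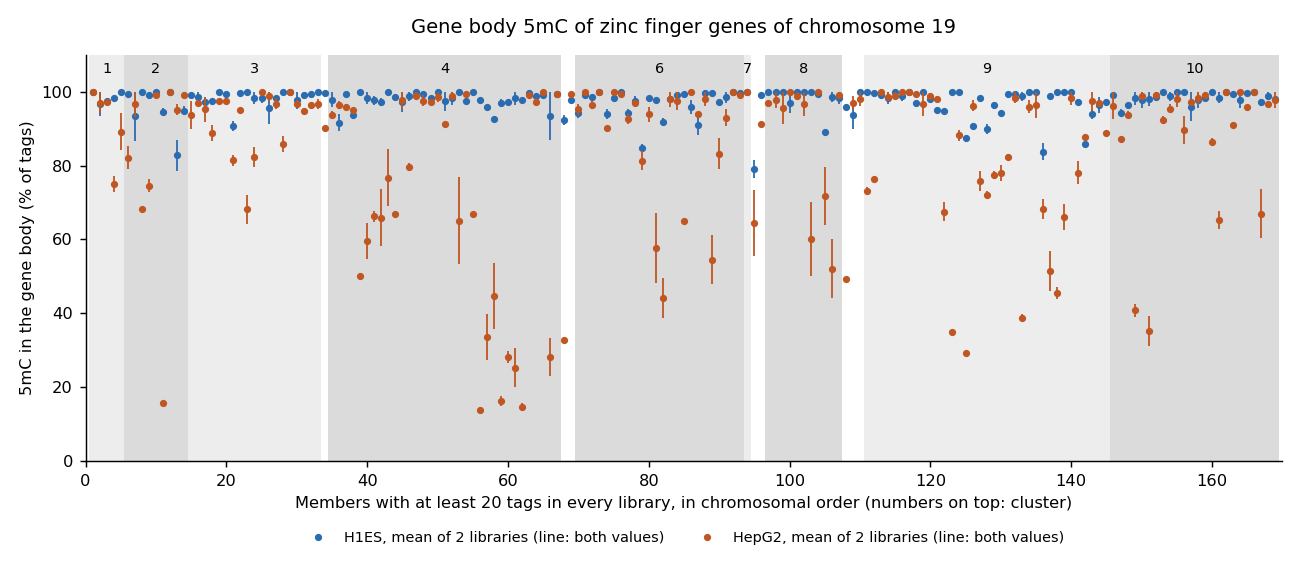
Gene body 5mC (percent of tags, y axis) of the 169 members with at least 20 tags in every library, in chromosomal order (x axis), with the H1ES mean in blue, the HepG2 mean in orange, and lines that join the values of both libraries. Shaded bands and numbers on top mark the clusters (cluster 5 has no body with enough tags). H1ES bodies lie near the top throughout, while HepG2 bodies drop in runs, deepest in cluster 4, where ZNF208 reaches 13.9%.

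Among called bodies that averaged 50 tags or more, the largest falls lay mostly in cluster 4. ZNF208 (chr19:21939815-22010943) had 98.1% and 97.5% 5mC in H1ES and 14.7% and 13% in HepG2 over 28 sites. Its log2 odds ratio was -8.03 ± 0.55 (SE, adjusted p = 3.8e-47). ZNF492 (chr19:22634324-22667671) had 98.1% and 95.7% in H1ES and 14.9% and 17.5% in HepG2 (-7.25 ± 0.65, adjusted p = 2.8e-28). ZNF99 (chr19:22752183-22784151) had 97.7% and 96.9% in H1ES and 29.9% and 26.7% in HepG2 (-6.44 ± 0.57, adjusted p = 2.1e-28). ZNF257 (chr19:22052484-22091480) had 96.1% and 95.8% in H1ES and 27.4% and 39.7% in HepG2 (-5.52 ± 0.49, adjusted p = 6.3e-29). All 4 lie in cluster 4. The other 2 of the 6 largest falls at this depth lie elsewhere. ZNF560 (chr19:9445876-9506692) had 95.6% and 93.7% in H1ES and 16.1% and 15.3% in HepG2 (adjusted p = 1.7e-36). ZNF880 (chr19:52366858-52397666) had 100% in both H1ES libraries, on 76 and 67 tags, and 35.1% and 34.8% in HepG2 (adjusted p = 7.2e-30). That the lowest H1ES value lay above the highest HepG2 value in each of these 6 genes was a condition for naming them.

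The single body called higher in HepG2 was ZNF383 (chr19:37218214-37248740), with 94.0% and 97.9% in H1ES and 100% on 108 and 106 tags in HepG2. Its adjusted p was 0.00143 by edgeR with all the libraries. A refit without 1 library cannot show whether this call holds. The body of ZNF91 was not called, with 98.4% and 99.1% in H1ES and 98.4% and 96.1% in HepG2 (log2 odds ratio -0.96 ± 0.98, SE, adjusted p = 0.426). The body of ZNF208, its close copy at the promoter, was among the least methylated in HepG2. ZNF274 had 95.7% and 100% in H1ES and 100% in both HepG2 libraries (adjusted p = 0.155, and 0.00397 against each library's odds). ZNF154 had 100% and 92.0% in H1ES and 97.2% and 97.0% in HepG2 (adjusted p = 0.978).

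Read by position, the members form 10 clusters when a gap of more than 1 Mb separates clusters, with 8 members outside any of them. In H1ES the cluster means of body 5mC ran only from 95.4% to 99.6%. In HepG2 they ran from 72.2% in cluster 4 (ZNF101 to ZNF254, 37 members) to 96.1% in cluster 7 (3 members). Cluster 4 had 72.5% and 72.0% in the HepG2 libraries. Cluster 9 (ZNF175 to ZNF331, 39 members) had 78.7% and 78.2%, and cluster 2 (ZNF557 to ZNF846, 15 members) 82.8% and 79.9%. The median tested body held 79.7% in cluster 4, 88.2% in cluster 9 and 95.1% in cluster 2. In cluster 2 only 1 of the 9 tested bodies, that of ZNF560, lay under 50%, and the pooled value includes it. Cluster 10, the largest with 59 members (ZNF628 to ZNF446), had a mean of 88%, cluster 6 88.2%, cluster 8 89.4%, cluster 1 90.7% and cluster 3 90.9%. Cluster 5 had 74.2%, on 10 sites only. At this gap clusters 1, 3, 6, 8 and 10 thus differed by less than 3 points. Clusters 4 and 9 stood below them by more than the spread of their libraries. This order depends on the gap, since the value of cluster 10 is a mix. A smaller gap split it into a part of 12 bodies (272 sites) and a part of 43 (472 sites). The first had 76.5% and 77.7% in the HepG2 libraries, below cluster 9, and the second had a mean of 93.5%. Of the bodies tested, 17 of 33 were called lower in cluster 4 and 18 of 35 in cluster 9, shares near the 53.9% of all genes. The counts were 2 of 5 in cluster 1, 4 of 9 in cluster 2, 7 of 19 in cluster 3, 5 of 24 in cluster 6, 2 of 11 in cluster 8 and 9 of 24 in cluster 10, all smaller shares than over all genes.

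In HepG2 the DNA between members held far less 5mC than their bodies. This DNA was taken outside other protein-coding genes and outside each placed member from 2000 bp before its start to its end. In 37 members the start used lies inside the gene span. Gene parts further upstream in such members can therefore count as DNA between members. Inside the clusters, 9842 such sites had means of 94.1 ± 0.406% in H1ES and 58.1 ± 1.12% in HepG2 (SD, n = 2 each). Bodies of the same clusters had 97.0 ± 0.385% and 83.4 ± 0.113%. Bodies lay above the DNA between them by 2.92 and 2.89 points in H1ES and by 26.1 and 24.4 points in HepG2. The DNA between members was lowest in clusters 5 and 4, at 42.5% and 43.0% in HepG2, and high in cluster 1, at 79.8% on only 82 sites, and cluster 3, at 78.8% on 763. In every cluster but cluster 7, which has 3 sites between members, the HepG2 bodies held more 5mC than the DNA between them.

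**Figure D4:**
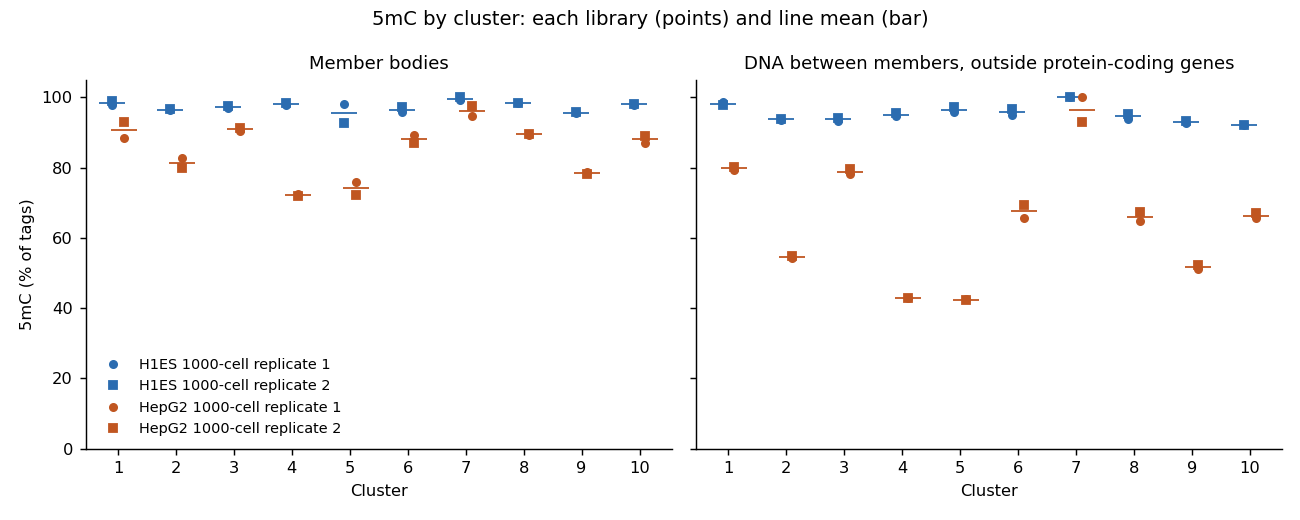
5mC (percent of tags, y axis) by cluster (x axis) in member bodies on the left and in the DNA between members on the right, with a point per library of 1000 cells and a bar at the mean of each line. H1ES lies above 90% in both panels, and HepG2 falls to 72.2% in the bodies of cluster 4 and to 43.0% between its members.

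Within cluster 4 the low bodies formed a stretch, which was chosen after its values were seen and is described without a test. From ZNF208 to ZNF730 (chr19:21939815-23147221) lie 10 members over 1207 kb. All 1199 CCGG sites of the stretch, inside genes and between them, had 96.7% and 96.9% 5mC in H1ES and 30.8% and 31.9% in HepG2. The part of the cluster before it had means of 92.6% and 56.5%, and the part after it 93.2% and 56.9%. All 7 bodies tested in the stretch were called lower, with HepG2 means from 13.9% to 44.7% and a median of 25.3%. Of these, ZNF723 had 30.6% and 20% in HepG2 and ZNF730 15.6% and 13.8%, on means of 28.2 and 40 tags. Both fell further than ZNF99 or ZNF257. ZNF98 had the highest, 53.7% and 35.7%. Before the stretch 9 of 21 bodies tested were called lower and the median body held 93.7% in HepG2. After it 1 of 5 was called lower, and ZNF91 was among those that were not. The stretch thus lay below the rest of the cluster both in its genes and as a whole.

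At the level of single members, body and start were set side by side. Of the 23 members whose start became more unmethylated at the minimum of 5 tags, 16 had a tested body, and 9 of these bodies were called lower in 5mC, with a median of 81.9% in HepG2. Of the 12 whose start became less unmethylated, 8 had a tested body, and 5 were lower, with a median of 89.9%. Of the 94 whose start was not called, 69 had a tested body, and 26 were lower and 1 higher, with a median of 96.4%. Over all genes 53.9% of bodies were lower, so the shares beside starts that moved lay near that of all genes, and the share beside starts that were not called lay under it. The difference between these shares was not tested.

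Members with known roles were also read as lists. Of 11 members reported as methylated in tumours, 6 bodies could be tested. Of these, 4 were lower and none higher in HepG2, with a median difference of -20.8 points. The list does not name the part of the gene, so the body values are no comparison with those reports. Over all bodies tested, 53.9% were lower and the median difference was -5.92 points. ZNF667 had 96.4% and 100% in H1ES and 39.1% and 42.5% in HepG2 (adjusted p = 7.2e-37). ZNF677, known as silenced in lung tumours, had 100% in H1ES and 69.7% and 62.5% in HepG2. ZNF418 had 100% and 96.9% in H1ES and 62.9% and 67.7% in HepG2. ZNF331 had 96.6% and 98.0% in H1ES and 89.1% and 88.4% in HepG2 (log2 odds ratio -2.09, adjusted p = 1.4e-07), which turned to 1.18 (adjusted p = 0.0162) against each library's odds. At a minimum of 5 tags, 6 starts of the list were tested. Of these, 2 were more unmethylated in HepG2 (ZNF177 and ZNF667) and 2 less (ZNF331 and ZNF418), beside 25.8% and 4.56% of all genes.

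Of 11 members known to bind retroelements or zinc finger genes, 8 bodies could be tested and 4 were lower, near the 53.9% of all genes, with a median difference of -6.67 points. ZNF93, known to repress L1 elements, had 100% in both H1ES libraries, on 86 and 65 tags, and 50% in both HepG2 libraries (adjusted p = 4.2e-23). ZNF611 had 97.1% and 95.8% in H1ES and 76.4% and 78.6% in HepG2 (-3.00, adjusted p = 3.2e-08), which turned to 0.24 against each library's odds (adjusted p = 0.764). ZNF528 had 100% in H1ES and 89.7% and 86.7% in HepG2. ZNF417 had 100% in H1ES and 87.5% and 85.4% in HepG2. Calls of ZNF417, ZNF418, ZNF528 and ZNF677 were lost against each library's odds. Of 4 starts tested in this list none was called by edgeR, with 1 at an unadjusted p under 0.05. Over all genes 31.3% of starts were called more unmethylated and 5.61% less.

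Of 21 partners of KRAB silencing that are not members, 17 bodies were tested and 4 were lower in HepG2, a smaller share than over all genes. ATF7IP, a partner of the histone methyltransferase SETDB1, had 99.4% and 98.7% in H1ES and 72.4% and 77.5% in HepG2. The deacetylase gene HDAC1 had 99.5% and 98.0% in H1ES and 92.5% and 91.4% in HepG2. EHMT2 and DNMT1 moved by less, and both calls were lost with DESeq2 (adjusted p = 0.126 and 0.0896). Of 4 starts tested, 1 was called more unmethylated, a share near the 31.3% of all genes. It was ZFP57, which guards imprints, with no unmethylated tag in either H1ES library and 50% and 28.6% in HepG2.

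Pooled over members, the 3′ ends, the part known to bear repressive chromatin, held more 5mC than the bodies in HepG2. The ends had 97.6% and 98.4% in H1ES and 87.1% and 87.7% in HepG2. Ends of other genes of the chromosome had means of 91.5% and 78.5%. Without ZNF536 the HepG2 means of members were 87.7% for ends and 83.1% for bodies. Ends of ZNF genes of other autosomes had means of 94.1% and 87.6%, so in HepG2 the members differed from them by only 0.13 and -0.44 points. Bodies of those genes had a HepG2 mean of 74.4%, further below their ends than in the members. 5mC was lower beyond the gene. In HepG2 the mean was 91.4% between 2 and 1 kb before the gene's end, 85.7% in the last 1 kb, 79.3% from 1 to 3 kb past the end and 72.5% from 3 to 10 kb. In H1ES these values were 98.7%, 97.0%, 91.6% and 91.0%. Cluster 4 was again the lowest in HepG2, at 61.4 ± 2.42% (SD, n = 2). In clusters 4 and 7 the HepG2 ends held less 5mC than the bodies, which had means of 72.2% and 96.1%. The ends of cluster 7 had 85.1%, on 6 sites. At 20 tags only 11 ends could be tested, and ZNF541 alone was called lower, with 97.7% and 95.2% in H1ES and 78.1% and 79.3% in HepG2. Over all genes 31.6% of ends were lower and 3.36% higher. The call of ZNF541 rests on all the libraries together, since a refit without 1 library cannot show whether it holds. With all libraries, DESeq2 and the replicate block each called 0 members, so the call was lost in both. Against each library's odds 1 of 11 ends (9.09%) was higher and 0 lower, beside 17.8% and 5.1% of all genes. At 10 tags, 3 of 36 ends were lower and 0 higher, beside 29.3% and 2.83%. At 5 tags, 12 of 84 ends were lower and 0 higher, beside 26.3% and 2.25%. Of the 12, ZNF257, ZNF98, ZNF492 and ZNF91 lie in cluster 4, and ZNF577, ZNF610, ZNF160 and ZNF665 in cluster 9. ZNF91, whose body was not called, had an end of 100% in both H1ES libraries and 66.7% and 64.7% in HepG2 over 3 sites.

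5hmC was rare in the members. Pooled over bodies it made up 1.18% and 0.842% of tags in H1ES and 0.282% and 0.381% in HepG2, beside means of 1.43% and 0.322% for other genes of the chromosome. Of 76 member bodies with at least 50 tags in every library, 1 was called lower in HepG2 and 0 higher, against 22.1% and 0.0111% of all genes. It was ZNF536, with 2.60% and 1.76% in H1ES and 0.0685% and 0% in HepG2 (log2 odds ratio -5.68 ± 0.74, SE, adjusted p = 6.0e-12). Against each library's odds it was not called (-3.26, adjusted p = 0.371), and edgeR called 0 members, with 6 at an unadjusted p under 0.05, beside 0.0442% of all genes higher and 0% lower. Which deposited column is 5hmC was told from its low values, and these figures rest on that.

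The single cells gave the same order for the pooled members, as values without a test, since each line counts as 1 sample here. Body 5mC ran from 96.0% to 97.3% over the 5 H1ES cells (median 96.5%) and from 77.3% to 82.3% over the 5 HepG2 cells (median 79.8%). The ranges did not overlap. At 3′ ends H1ES cells had 97.7 to 98.6% and HepG2 cells 84.9 to 91.3%. At starts the unmethylated share ran from 52.8% to 57.5% in H1ES and from 53.6% to 64.3% in HepG2, and these ranges overlapped. The stretch from ZNF208 to ZNF730 held 93.9 to 98.5% 5mC in single H1ES cells and 27.7 to 34.6% in single HepG2 cells. Before and after it the HepG2 medians were 56.6% and 60.2%.

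**Figure D5:**
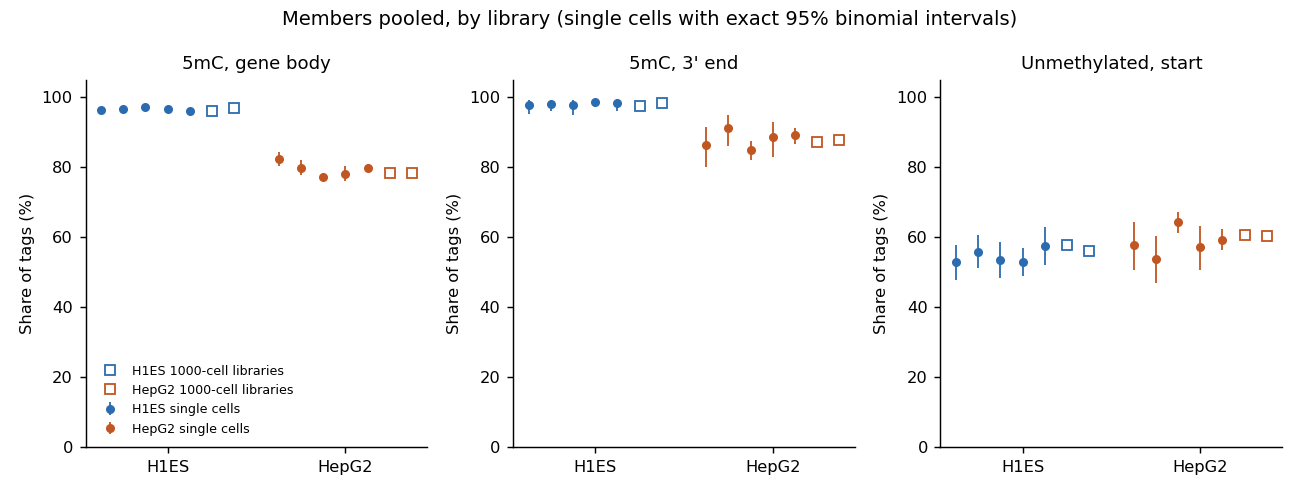
Share of pooled member tags (percent, y axis) in bodies, 3′ ends and starts for each library of H1ES and HepG2 (x axis), with filled points for single cells (lines are exact 95% Clopper-Pearson intervals, counting error only) and open squares for libraries of 1000 cells. Body 5mC of the HepG2 cells lies between 77.3% and 82.3%, below all H1ES cells, while the starts of both lines overlap.

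Named genes could be read in the single cells only after the 5 cells of a line were added up. In the body of ZNF208, 77 of 79 tags were 5mC in H1ES and 9 of 73 in HepG2. ZNF492 had 61 of 65 and 12 of 65, ZNF560 72 of 74 and 17 of 84, and ZNF880 63 of 63 and 26 of 75. ZNF257 had 82 of 84 and 26 of 79. ZNF99 had 79 of 81 and 46 of 91, or 50.5% in HepG2 (exact 95% Clopper-Pearson interval 39.9 to 61.2%), above its 29.9% and 26.7% in the libraries of 1000 cells. ZNF93 had 75 of 77 and 45 of 81. ZNF91 again differed little, with 136 of 138 and 146 of 149. ZNF383 had 100 of 103 in H1ES and 150 of 150 in HepG2. At starts, ZNF556 had 1 unmethylated tag of 14 in H1ES and 19 of 22 in HepG2. ZNF575 had 18 of 21 and 7 of 30, and ZNF331 17 of 24 and 11 of 31. ZNF329 did not clearly separate the lines, with 12 of 20 in H1ES and 11 of 23 in HepG2. Its exact 95% intervals overlapped, at 36.1 to 80.9% and 26.8 to 69.4%. ZNF257 had 0 of 19 and 5 of 13. ZNF208 had 0 of 10 in H1ES and 0 of 8 in HepG2, so the rise seen in its start with 1000 cells was not detectable in single cells at this depth.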

How the data were processed

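For every CCGG site of a library, the deposited tables give the fraction of tags that are unmethylated, 5mC and 5hmC. Their last column holds the deposited counts of all tags at that site. The human build was hg38, and cutadapt 1.5, UMI-tools 0.5.4 and Bowtie2 2.3.4.1 are named, per the submitters' processing notes. Their settings are not given in the sources used here. The tables have no header, so the marks were told from the values. Fraction times count was whole within 0.00141 at every site of the 1000-cell libraries and gave the tags of each mark. The labels name no batch, and the mouse libraries were left out.

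Windows came from RefSeq (GRCh38.p14). Of several transcription starts (36 members) the most 5′ inside the gene was taken. The test set the mark's tags against all other tags in a model with a term for each library (edgeR 4.0.16, quasi-likelihood, R 4.3.3, adjusted p under 0.05), fitted over all autosomal genes with 20 tags in every library (10 at starts, 50 for 5hmC). DESeq2 1.42.0 and limma 3.58.1 (pseudocount 0.5) were alternatives, and the fits were tested on simulated data. Exact permutation tests used SciPy 1.17.1 in Python 3.11.15. Promoters were aligned globally with Biopython 1.88.

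Named were the called members with separate groups and 50 tags on average (20 at starts): the 6 largest rises and falls for bodies and starts, 3 each for 3′ ends and 5hmC, up to 4 of each list by p, and ZNF91, ZNF93, ZNF274, ZNF331 and ZNF154. Members were taken by symbol alone, but this group and the lists were chosen with earlier results of these data known. Libraries with the same replicate number did not deviate together (r = 0.00586 over 12285 bodies), and the tags of replicates differed about as counting error gives (chi-square per degree of freedom 1.05 in H1ES and 0.967 in HepG2).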

Additional observations from a re-analysis of the deposited data

How the results depend on the processing

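Depth limits the starts and 3′ ends most, with a median of 8 and 5 tags per member. Member bodies lower in 5mC numbered 67 of 169 tested, or 39.6%, beside 53.9% of all genes. At a minimum of 50 tags they numbered 39 of 76, or 51.3%, beside 5211 of 9049 genes. Against each library's odds they numbered 29 of 169, or 17.2%, beside 21.6% of all genes. Among the 119 tested members with 1 start only they numbered 44. With a library left out the members' median log2 odds ratio ran from -2.91 to -1.69, against -2.38 to -1.87 over all genes. 3′ ends lower numbered 1 of 11 tested, 3 of 36 at 10 tags and 12 of 84 at 5 tags, beside 31.6%, 29.3% and 26.3% of all genes. Over the last 5000 bp they numbered 3 of 22, beside 1447 of 4073 genes, and over the last 2000 bp 0 of 3, beside 161 of 574. Limma gave 2 of 11, beside 552 of 1667 genes. DESeq2, the replicate block and each library's odds gave 0 of 11, beside 397, 418 and 85 of 1667 genes. At 50 tags no member end could be tested. With a library left out the members' median log2 odds ratio ran from -1.53 to 0, against -2.20 to -1.10 over all genes. Starts more unmethylated numbered 10 of 52 tested, 23 of 129 at 5 tags and 1 of 8 at 20 tags. Over all genes they numbered 1491 of 4759, 2569 of 9967 and 292 of 687. Against each library's odds 1 of 52 was more unmethylated, beside 5.74% of all genes. With 500 bp on each side 2 of 18 were, beside 284 of 1431 genes. From 2000 bp before to 1000 bp after the start 20 of 89 were, beside 2700 of 7639 genes. Starts less unmethylated numbered 4 of 52 tested, 12 of 129 at 5 tags and 2 of 8 at 20 tags. Over all genes they numbered 267 of 4759, 454 of 9967 and 43 of 687. DESeq2 and the replicate block each gave 2 of 52, beside 195 and 227 of 4759 genes. With 500 bp on each side 2 of 18 were less unmethylated, beside 80 of 1431 genes. Against each library's odds 32 of 52, or 61.5%, were, beside 45.4% of all genes. Bodies lower in 5hmC numbered 1 of 76 tested, 2 of 21 at 100 tags, 3 of 76 with limma and 0 of 76 against each library's odds. Over all genes they numbered 1997 of 9049, 2183 of 5866, 1912 of 9049 and 0 of 9049. The cause of these shifts was not tested, but higher minima and narrower windows test fewer genes.

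Pooled body 5mC differed by -18.2 points, -19.7 by site, -14.0 by gene, -13.8 without ZNF536 and -18.5 to -17.8 with a library left out. The difference from other genes of the chromosome changed by -0.942 points, by -1.58 by site, by -1.35 to -0.536 with a library left out, by 3.61 at sites with no other CCGG within 500 bp and by 3.43 without ZNF536. Against each library's odds, body values turned to 1.76 (DNMT1), 1.57 (EHMT2), 0.22 (HDAC1), 1.18 (ZNF331) and 0.24 (ZNF611) on the log2 odds scale, and start values to -1.04 (ZNF562), -1.19 (ZNF563), -0.64 (ZNF77) and -2.70 (ZNF91). The 5-tag minimum for 3′ ends, the runs without ZNF536 and those on members with 1 start or a promoter entry were added after the data were seen. The shared replicate numbers do not pair the libraries. With the replicate block 66 of 169 bodies were lower, beside 6454 of 12285 genes. In the same setting 9 of 52 starts were higher, beside 1308 of 4759 genes. With clusters parted at gaps of 0.5 Mb there were 11 of them. Cluster 10 was then split, with HepG2 body means of 77.1% and 93.5% in its parts. Its place among the clusters thus depends on the gap.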

Other observations

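Some member bodies were already incomplete in H1ES. Of the 169 bodies tested, 140 held at least 95% 5mC in H1ES and 89 in HepG2, and 7 were under 90% in H1ES. ZNF574 had 76.6% and 81.4% in H1ES and 73.3% and 55.6% in HepG2. ZNF121 had 87.1% and 78.6% in H1ES and 93.6% and 96.7% in HepG2, the reverse order, but was not called. ZNF790, ZNF112 and ZNF765 were not called either. ZNF160 and ZNF578, which lie in cluster 9, were called lower in HepG2, with 65.5% and 70.8% for ZNF160 and 29.9% and 28.8% for ZNF578. These genes were chosen after their values were seen.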
